A study of Mus musculus with 12 samples.

Results

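How all genes of wild type MEF (WT MEF) responded to lithium chloride (LiCl) was described. MEF are fibroblasts, the cells that build connective tissue, taken into culture from mouse embryos. The comparison rested on 6 of the 12 libraries of the series, chosen by their sample labels: 3 of WT MEF that received no LiCl and 3 of WT MEF kept in 20 mM LiCl for 48 h. The other 6 libraries were of HSF1 knock-out MEF under the same conditions. They entered the fit, where they shared the estimate of the spread, and are otherwise used only to test whether a response differed between the genotypes. The 3 libraries of a group are called 1, 2 and unnumbered in the labels, and values below are given in the order unnumbered, 1 and 2. No source used here gives the mouse strain, the age of the embryos, the passage, or whether each library of a group had its own culture. The p-values therefore measure how these libraries vary, and that spread may be technical. No mock salt was included in the design, so lithium, chloride and the osmotic load of the salt cannot be told apart.

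Lithium ions inhibit glycogen synthase kinase 3 (GSK3), a kinase that phosphorylates β-catenin, glycogen synthase and many other proteins. In the absence of a Wnt signal, β-catenin is phosphorylated in a destruction complex built on AXIN and APC and is degraded. When GSK3 is inhibited, β-catenin accumulates and acts with TCF/LEF factors on target genes such as Axin2. Lithium also inhibits a family of magnesium-dependent phosphatases, among them inositol monophosphatase, which lies on the path that recycles inositol. HSF1, the factor removed in the other genotype, is the main activator of heat shock protein genes and binds heat shock elements in their promoters.

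The deposited values were taken as FPKM of transcripts (fragments scaled to transcript length and library size), summed here to 12988 genes. Those that averaged 0.5 FPKM or more across the 12 libraries were tested, which left 12279 genes. The summed FPKM was 357352 to 369917 in the libraries without LiCl and 347858 to 362981 in those with LiCl. Genes above 1 FPKM numbered 11101 to 11156 and 10930 to 10960. The number of reads behind a value is unknown, so precision here means the spread over libraries. Pearson's r between libraries of the same group was 0.977 to 0.982 on the log2(FPKM + 1) scale across genes, and between the groups 0.84 to 0.845. The unnumbered library of each group stood apart in the most abundant gene, Saa3, which encodes an acute phase protein made by stimulated fibroblasts. Saa3 took 2.96, 4.92 and 5.05% of all FPKM without LiCl and 1.46, 2.2 and 2.12% with LiCl. The mitochondrial gene mt-Nd4 was listed near 0 in library 2 without LiCl and in library 1 with LiCl while it was abundant in the other libraries, and it is among the mitochondrially encoded genes counted below, where it did not pass.

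Markers of fibroblasts were abundant in every library. Their summed level ran from 1.69 to 1.83% of all FPKM in the libraries without LiCl and from 0.557 to 0.573% in those with LiCl. Of the 13 genes tested, 0 rose, 12 fell and 1 did not pass the threshold, with a median log2 fold change of -2.35. Prrx1, a mesenchymal transcription factor, went from 129.9 ± 3.95 to 24.8 ± 3.5 FPKM (SD, n = 3, as throughout). Thy1, a fibroblast surface protein, went from 365 ± 21.2 to 46.9 ± 2.33 FPKM, and Pdgfra, the receptor for platelet-derived growth factor A, from 61.1 ± 0.308 to 9.0 ± 0.759 FPKM. Vim, the intermediate filament gene of mesenchymal cells, was 492, 578 and 561 FPKM without LiCl and 449, 513 and 518 FPKM with LiCl (adjusted p = 0.221). In bulk RNA, fewer cells of a type and less RNA per cell cannot be told apart. Macrophage markers summed to 0.0277 to 0.0305% of all FPKM without LiCl and 0.00516 to 0.00656% with LiCl, and the leukocyte genes Ptprc and Aif1 were listed at 0 in all 6 libraries. Of 9 macrophage markers in the table, Lyz2, Tyrobp, Adgre1, Fcer1g and Csf1r fell, and Cd68, a lysosomal glycoprotein, rose. The epithelial keratin gene Krt18 rose from 1.37 ± 0.18 to 6.87 ± 0.9 FPKM and Krt19 from 6.74 ± 0.883 to 19.2 ± 1.78 FPKM, and Cldn4 rose too. These were the 3 epithelial markers tested of 9 listed, and the others were not in the deposited values or too low to be tested. Vwf, the only endothelial marker tested, went from 0.0218 ± 0.00941 to 2.25 ± 0.243 FPKM. The adipocyte markers Lpl, Fabp4 and Cd36 fell, Fabp4 from 110.0 ± 1.9 to 20.0 ± 1.11 FPKM. Of the muscle markers Des fell and Acta1 rose, and of the neural markers Stmn2 and Tubb3 fell and Nes, a filament gene of progenitor cells, rose from 3.97 ± 0.311 to 12.7 ± 0.527 FPKM. Of the endothelial, adipocyte, muscle and neural markers listed, only those named here were tested. The part of other cells in the results below was not tested.

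LiCl was followed by a change in most genes. At an adjusted p under 0.05 (limma, Benjamini-Hochberg over the 12279 genes), 4680 genes rose (38.1% of those tested) and 3330 fell (27.1%). With a log2 fold change over 1 as well, 1553 genes rose (12.6%) and 1426 fell (11.6%), and over 2, 263 rose (2.14%) and 405 fell (3.3%). Counts of list members as deposited are to be read against these shares. The 3 libraries with LiCl did not overlap with the 3 without it in 8593 genes, 70.0% of those tested. Over all genes the median log2 fold change was 0.13 as deposited and -0.015 after median-of-ratios scaling. The split of the calls followed that shift: 58.4% of called genes rose as deposited and 49.0% after median-of-ratios scaling, or 52.1% and 40.8% at a log2 fold change over 1. No call changed its direction under that scaling, but 864 of the rises no longer passed. After it 3816 of the 12279 genes rose and 3976 fell, and list counts given after that scaling are to be read against these numbers. Counts of lists with small changes are therefore mostly given under both scalings. Leaving out each of the 6 libraries in turn kept 6896 of the 8010 calls, and 2911 of the 2979 calls over 1. Of the genes given below as not past the threshold, Asns, Atp6v0a1, Cdkn1a, Tgfbr2, Vim and Yap1 passed as falls after median-of-ratios scaling, and of those given as risen, Dvl3, Fzd5, Gpam, Gsk3b, Hyal2, Max, Nid1, Pdk3 and Rplp1 no longer passed. Since 1 FPKM was added before taking logs, the fold change of genes with low FPKM is understated.

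**Figure D1:**
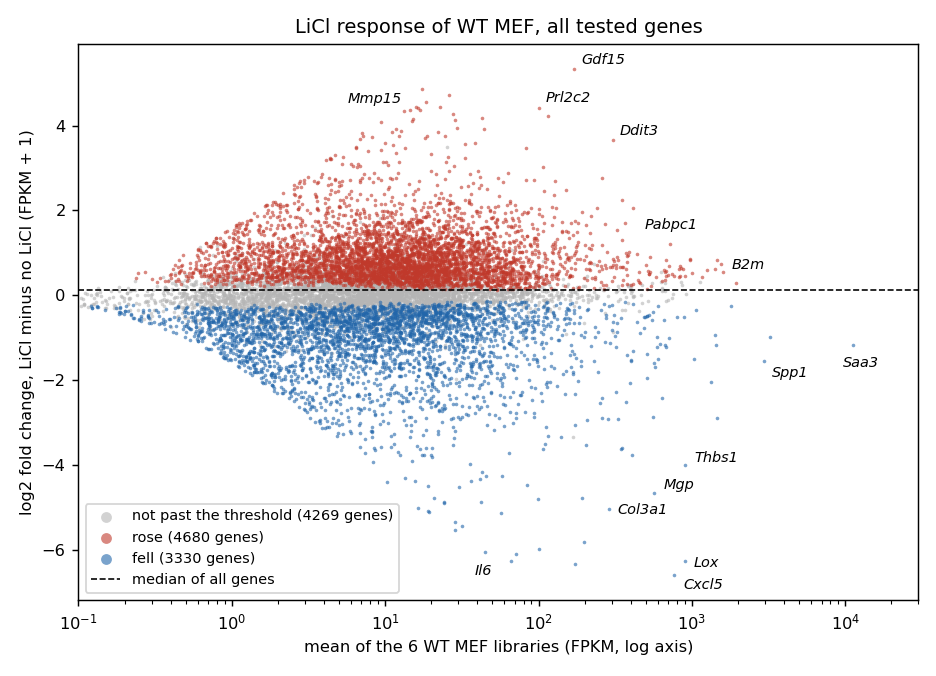
Log2 fold change of each of the 12279 tested genes in WT MEF, LiCl minus no LiCl on the log2(FPKM + 1) scale, against the mean of the 6 WT MEF libraries in FPKM on a log axis. Red points are the 4680 genes that rose, blue points the 3330 that fell, grey points the others, and the dashed line is the median of all genes, 0.13. The falls reach further (Cxcl5 -6.59) than the rises (Gdf15 5.33).

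The 10 largest rises by fold were mostly in genes that were low without LiCl. All but Gdf15 and Prl2c2 averaged between 0.241 (Palm3) and 1.08 FPKM (Mt3) there. Gdf15, a stress-induced secreted cytokine (ENSMUSG00000038508.7, chr8:70629393-70632456, reverse strand), was 6.63, 7.56 and 7.86 FPKM without LiCl and 305, 354 and 346 FPKM with LiCl and had the largest log2 fold change, 5.33. Palm3, which encodes a member of the paralemmin family, was 0.245, 0.00723 and 0.471 FPKM without LiCl and 36.2, 31.3 and 36.7 FPKM with LiCl. Rhbdl2, a rhomboid protease that cuts membrane proteins, was 1.29, 0.554 and 1.18 FPKM without LiCl and 50.5, 50.3 and 51.9 FPKM with LiCl. In both genes the groups lay far apart and the 3 libraries with LiCl were close to each other (Palm3 log2 fold change 4.86, Rhbdl2 4.71). Tbc1d8, with the domain of proteins that switch off Rab GTPases, was 0.26, 0.829 and 0.721 FPKM without LiCl and 33.3, 35.2 and 39.8 FPKM with LiCl (log2 fold change 4.55, SE 0.13, adjusted p = 4.22e-10). Slc4a11, a membrane transporter known from the corneal endothelium, was 0.922, 0.204 and 0.605 FPKM without LiCl and 28.5, 35.6 and 32.4 FPKM with LiCl (log2 fold change 4.42, SE 0.17, adjusted p = 3.42e-09). Plek2, a relative of pleckstrin that binds membrane phosphoinositides, was 0.501, 0.88 and 0.604 FPKM without LiCl and 33.2, 34.1 and 32.4 FPKM with LiCl, and its lowest library with LiCl was far above its highest library without it. Depdc7 was 0.546, 0.45 and 0.351 FPKM without LiCl and 28.3, 28.9 and 28.8 FPKM with LiCl (log2 fold change 4.36, SE 0.08, adjusted p = 3.14e-11). Mmp15, a membrane-bound metalloproteinase, and the metallothionein gene Mt3 are taken up with their families below, as is Prl2c2, the split of whose reads from its near-identical copy Prl2c3 is uncertain.

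Cytokines, a chemokine and matrix genes were among the 10 largest falls by fold. Cxcl5, a chemokine that draws neutrophils (ENSMUSG00000029371.7, chr5:90759360-90761624, forward strand), was 1627, 1456 and 1452 FPKM without LiCl and 15.5, 12.9 and 15.8 FPKM with LiCl. No gene tested fell further (log2 fold change -6.59, SE 0.13, adjusted p = 3.16e-11). Ptx3, a soluble pattern recognition protein, was 344, 339 and 343 FPKM without LiCl and 3.06, 2.92 and 3.95 FPKM with LiCl (log2 fold change -6.32, SE 0.08, adjusted p = 7.54e-12). Il6, the cytokine interleukin 6 (ENSMUSG00000025746.11, chr5:30013114-30019981, forward strand), was 132, 119 and 145 FPKM without LiCl and 0.381, 0.81 and 1.06 FPKM with LiCl. The highest Il6 level with LiCl was thus below 1% of the lowest without it. Tslp, a cytokine of barrier tissues, was 147, 144 and 134 FPKM without LiCl and 0.955, 1.28 and 0.995 FPKM with LiCl. Tnfsf11, which encodes RANKL, the cytokine that drives osteoclast formation, was 65.1, 60.3 and 62.5 FPKM without LiCl and 0.337, 0.47 and 0.585 FPKM with LiCl (log2 fold change -5.44, SE 0.12, adjusted p = 8.05e-11). Serpina3g, a serine protease inhibitor from a family of near-identical copies among which reads may be split, was 197, 194 and 205 FPKM without LiCl and 1.91, 1.84 and 2.77 FPKM with LiCl. Steap4, a metalloreductase induced by inflammatory cytokines, was 63.1, 54.4 and 53.2 FPKM without LiCl and 0.307, 0.239 and 0.185 FPKM with LiCl (log2 fold change -5.54, SE 0.10, adjusted p = 3.14e-11). U90926 was 98.7, 87.5 and 80.2 FPKM without LiCl and 0, 0.702 and 0.453 FPKM with LiCl, with 1 library listed at 0. Lox and Ccn5, both proteins of the matrix, completed the 10 largest falls.

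**Figure D2:**
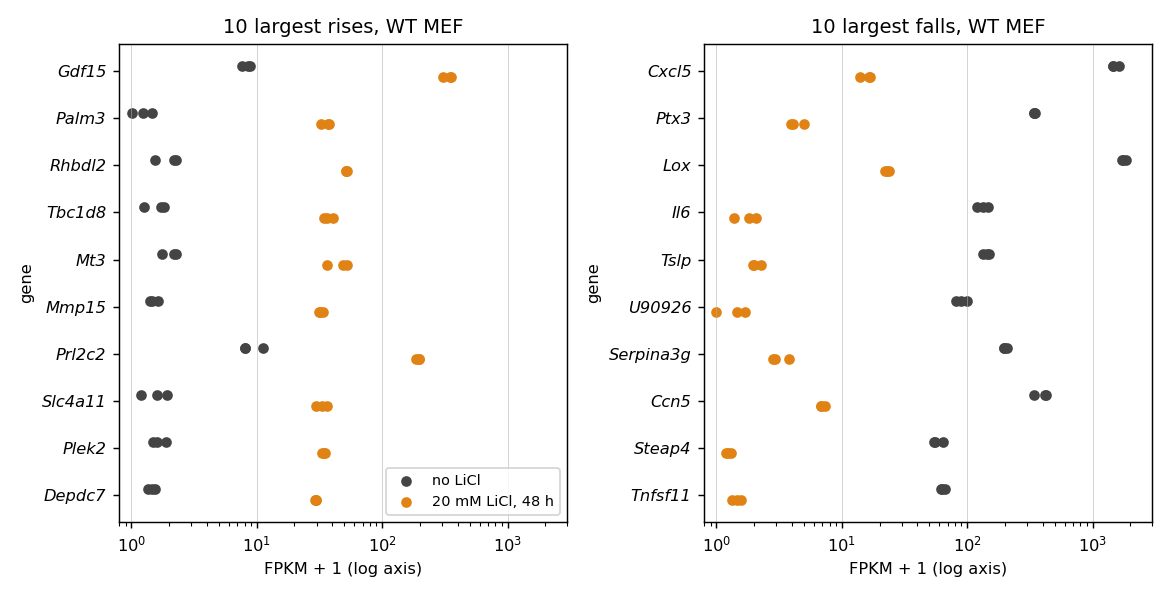
FPKM + 1 on a log axis in each of the 6 WT MEF libraries for the 10 genes that rose most and the 10 that fell most by log2 fold change. Each point is a library, dark without LiCl and orange with 20 mM LiCl for 48 h, and in each of the 20 genes the 2 sets of points lie apart.

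By level the picture was led by other genes. The largest gain was in B2m, the light chain of MHC class I, which was 1039, 1058 and 1043 FPKM without LiCl and 1655, 1960.3 and 2029.6 FPKM with LiCl, a mean gain of 835 FPKM. The mitochondrially encoded mt-Nd1 and mt-Co2 and the ribosomal protein genes Rplp1, Rpl41 and Rplp0 were also among the 10 largest gains. Pabpc1, the cytoplasmic protein that binds poly(A) tails, was 427, 423 and 448 FPKM without LiCl and 974, 1058 and 990.4 FPKM with LiCl (log2 fold change 1.22, SE 0.05, adjusted p = 7.22e-09). Ddit3, a transcription factor gene of the integrated stress response, was 39.8, 43.1 and 49 FPKM without LiCl and 519, 597 and 579.5 FPKM with LiCl. Cstb, an inhibitor of lysosomal cysteine proteases, was 162, 166 and 152 FPKM without LiCl and 592, 698 and 713 FPKM with LiCl (log2 fold change 2.05, SE 0.12, adjusted p = 6.92e-08), and the protease gene Ctsd gained 543 FPKM. The largest loss was in Saa3, which was 10551, 18170.0 and 18413 FPKM without LiCl and 5083, 7972 and 7635 FPKM with LiCl. Here the replicate spread was wide, with the unnumbered library low in both groups, but the groups did not overlap (log2 fold change -1.17, SE 0.24, adjusted p = 0.00125). Saa3 had the highest level in every one of the 6 libraries, so its log2 fold change was 0 by construction under quantile normalization. Spp1, which encodes osteopontin, went from 4430.4 ± 472 to 1508 ± 119.8 FPKM, and Mmp3, the metalloproteinase stromelysin 1, from 2561 ± 218 to 343 ± 7.03 FPKM. Fth1, the heavy chain of ferritin, went from 4266 ± 776 to 2150.5 ± 318 FPKM, and Lcn2, a secreted protein that binds iron carriers of bacteria, from 2136 ± 412 to 517 ± 57.7 FPKM. Mgp, an inhibitor of calcification, was 1066, 1123 and 1101 FPKM without LiCl and 47.2, 41.1 and 39.7 FPKM with LiCl (log2 fold change -4.66, SE 0.10, adjusted p = 5.07e-11). Thbs1 and Sparc, both secreted matrix proteins, were among the 10 largest losses as well.

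Genes of inflammation fell together. Among chemokines, cytokines and acute phase proteins, 4 rose and 34 fell of 41 tested (median log2 fold change -1.64), and their summed level ran from 4.95 to 6.99% of all FPKM in the libraries without LiCl and from 1.96 to 2.7% in those with LiCl. Cxcl1 and Ccl2, chemokines for neutrophils and monocytes, were both abundant without LiCl. Ccl2 was 789, 812 and 818 FPKM without LiCl and 206, 203 and 210.5 FPKM with LiCl (log2 fold change -1.96, SE 0.09, adjusted p = 9.31e-09). Cxcl1 went from 637 ± 12.2 to 50.7 ± 1.48 FPKM, Ccl7 from 603 ± 47.6 to 204 ± 7.64 FPKM, and Ccl20, a ligand of lymphocytes and dendritic cells, from 112 ± 10.8 to 2.23 ± 0.594 FPKM. Ccl11, the eosinophil chemokine eotaxin, went from 37.7 ± 0.732 to 0.152 ± 0.163 FPKM, and Cxcl12, the ligand of CXCR4, from 21.7 ± 0.484 to 1.0 ± 0.0786 FPKM. Il1b and Cxcl9, already under 1 FPKM without LiCl, were listed at 0 in each library with LiCl. The 4 members that rose were Prl2c2, Prl2c3, Il1rl1 and Csf2. Prl2c2, a growth-induced hormone of the prolactin family, was 10.3, 7.07 and 7.0 FPKM without LiCl and 195, 186 and 196 FPKM with LiCl. Il1rl1, the receptor of interleukin 33, went from 81.2 ± 7.04 to 232 ± 11.8 FPKM, and Csf2, the growth factor GM-CSF, from 0.826 ± 0.24 to 9.0 ± 1.0 FPKM.

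Complement genes followed the same direction, in that 2 rose and 15 fell of 19 tested (median log2 fold change -1.53). Serping1, the inhibitor of the first complement component, was 189.8, 208 and 203 FPKM without LiCl and 15.1, 15.5 and 15.5 FPKM with LiCl (log2 fold change -3.62, SE 0.18, adjusted p = 1.69e-08). The proteases of that component, C1ra and C1s1, went from 39.6 ± 2.44 to 5.25 ± 0.627 FPKM and from 101 ± 0.0802 to 16.2 ± 1.3 FPKM. C3, the central component, went from 94.6 ± 2.51 to 24.3 ± 1.38 FPKM. Only Cd55, a membrane protein that dissolves complement convertases, and Cfp, the stabilizer properdin, rose, Cd55 from 23.8 ± 1.43 to 50.9 ± 6.53 FPKM.

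Of the interferon-stimulated genes, 2 rose and 31 fell of 37 tested (median log2 fold change -1.04). Their summed level overlapped between the groups, with 0.412 to 0.52% of all FPKM without LiCl and 0.384 to 0.419% with LiCl. Isg15, a ubiquitin-like protein, was 46.7, 49.8 and 51.5 FPKM without LiCl and 5.33, 5.57 and 6.47 FPKM with LiCl (log2 fold change -2.89, SE 0.12, adjusted p = 4.59e-09). Ifit1, which binds foreign RNA ends, went from 15.5 ± 1.23 to 0.919 ± 0.0664 FPKM, and Gbp2, a GTPase that attacks pathogen vacuoles, from 15.9 ± 0.663 to 1.41 ± 0.302 FPKM. Iigp1 and Ifi44 went from 5.85 ± 0.599 to 0.184 ± 0.0184 FPKM and from 5.93 ± 0.936 to 0.265 ± 0.0253 FPKM. Cmpk2, low without LiCl, was listed at 0 in each library with it. The rising members were Ifitm3, a membrane protein that blocks virus entry, from 696 ± 4.18 to 947 ± 66.7 FPKM, and Ifi35, from 15.6 ± 1.78 to 30.7 ± 3.5 FPKM. MHC class I genes differed from this: of 17 tested, 7 rose and 5 fell, and 6 rose and 6 fell after median-of-ratios scaling. Nlrc5, the transactivator of MHC class I genes, rose from 1.55 ± 0.695 to 12.1 ± 1.56 FPKM, the peptide transporter gene Tap1 from 6.26 ± 0.797 to 21.3 ± 3.62 FPKM, and H2-D1 from 226 ± 13 to 397 ± 25.1 FPKM. The non-classical gene H2-T23 fell from 50.2 ± 5.78 to 7.71 ± 1.04 FPKM, and H2-Q7, the immunoproteasome genes Psmb9 and Psmb10 and the peptidase gene Erap1 fell too. H2-K1 was 150.5, 159 and 155 FPKM without LiCl and 146, 161 and 159.7 FPKM with LiCl (adjusted p = 0.962). The H2 genes share sequence, so the split of reads among them is uncertain.

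The extracellular matrix was the other large group that fell. Of the elastic fibre, matricellular and crosslinking genes, 3 rose and 32 fell of 38 tested (median log2 fold change -2.15). Their summed level ran from 4.02 to 4.2% of all FPKM in the libraries without LiCl and from 1.06 to 1.1% in those with LiCl. Lox, the oxidase that crosslinks collagen and elastin, was 1861, 1743 and 1710.3 FPKM without LiCl and 21.7, 21.2 and 22.8 FPKM with LiCl (log2 fold change -6.27, SE 0.10, adjusted p = 1.55e-11). Its relatives Loxl1, Loxl2 and Loxl3 fell as well, Loxl1 from 143 ± 14.3 to 20.4 ± 1.34 FPKM, while Loxl4 rose from 7.36 ± 0.766 to 16.2 ± 1.07 FPKM. Among the CCN proteins, Ccn5 was 339.9, 424 and 414 FPKM without LiCl and 5.81, 6.35 and 5.84 FPKM with LiCl. Ccn2, the connective tissue growth factor, was 705, 768 and 790.4 FPKM without LiCl and 54.2, 55.4 and 55.2 FPKM with LiCl (log2 fold change -3.75, SE 0.07, adjusted p = 3.14e-11). Ccn1 went from 438 ± 19.1 to 80.5 ± 1.67 FPKM and Ccn4, a target of Wnt signalling, from 33.4 ± 1.98 to 7.74 ± 1.79 FPKM, and Ccn3 was the member of that family that rose, from 9.52 ± 1.2 to 15.8 ± 0.342 FPKM. Thbs1, thrombospondin 1, was 1723, 1696 and 1692 FPKM without LiCl and 112, 101 and 102 FPKM with LiCl (log2 fold change -4.01, SE 0.07, adjusted p = 2.38e-11). Fbln5, needed to assemble elastic fibres, went from 69.7 ± 2.82 to 2.47 ± 1.04 FPKM, and the fibrillin gene Fbn1 from 56.6 ± 2.79 to 10.5 ± 0.51 FPKM. Besides Loxl4 and Ccn3, only Plod2, which hydroxylates lysines in collagen, rose in this list, from 80.3 ± 6.6 to 174 ± 7.12 FPKM.

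Collagens and basement membrane genes showed a wide span. Of the 30 genes tested, 4 rose, 24 fell and 2 did not pass the threshold, with a median log2 fold change of -1.19. Col3a1, a fibrillar collagen (ENSMUSG00000026043.18, chr1:45311538-45349706, forward strand), was 503, 573 and 592 FPKM without LiCl and 15.6, 16.9 and 15.3 FPKM with LiCl (log2 fold change -5.04, SE 0.08, adjusted p = 1.16e-11). Col1a1, the most abundant collagen gene of the 6 libraries, was 850.2, 1025 and 1089 FPKM without LiCl and 129.5, 139 and 136 FPKM with LiCl. The groups lay far apart (log2 fold change -2.86, SE 0.09, adjusted p = 9.8e-10). Its partner Col1a2 went from 586 ± 21.6 to 76.5 ± 3.04 FPKM, and Col5a1 and Col5a2, which set the width of fibrils, from 199.8 ± 17.1 to 22.4 ± 0.238 FPKM and from 374 ± 20.8 to 31.5 ± 1.24 FPKM. Col14a1, 3.75 FPKM without LiCl, was listed at 0 in each library with LiCl. In contrast, the collagens of basement membranes differed less: Col4a2 went from 100.3 ± 6.41 to 63.5 ± 1.79 FPKM, and Col4a1 was 88, 104 and 103 FPKM without LiCl and 89.4, 90.1 and 41.2 FPKM with LiCl (adjusted p = 0.264). Col18a1, from which endostatin is cut, rose, with 30.2, 35.5 and 31.8 FPKM without LiCl and 120.1, 141 and 126 FPKM with LiCl (log2 fold change 1.96, SE 0.09, adjusted p = 1.64e-08). Col27a1, a fibrillar collagen of cartilage, was 1.5, 2.49 and 1.8 FPKM without LiCl and 5.39, 6.55 and 6.35 FPKM with LiCl (log2 fold change 1.29, SE 0.15, adjusted p = 2.47e-05). The laminin chain Lama5 and the laminin-binding protein Nid1 were the other 2 members that rose.

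**Figure D3:**
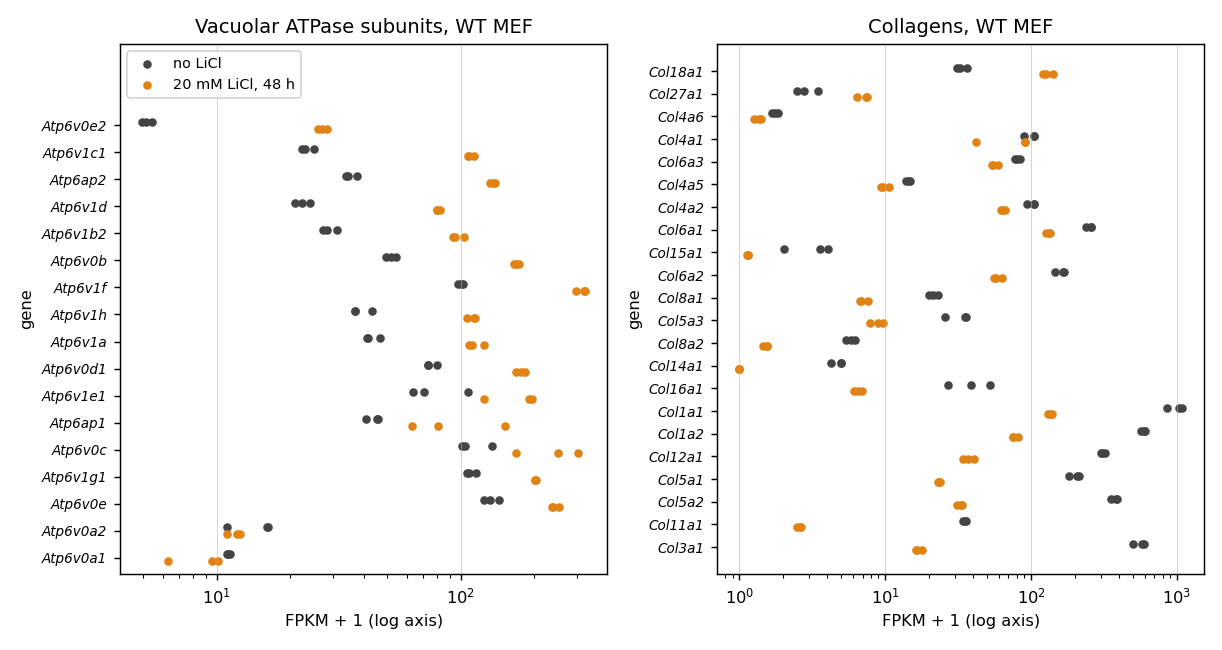
FPKM + 1 on a log axis in each of the 6 WT MEF libraries, for the subunits of the vacuolar ATPase (left) and for the collagens (right), dark without LiCl and orange with LiCl. The points of 15 of 17 pump subunits lie to the right with LiCl, while Col3a1 falls from 556 to 15.9 FPKM and Col18a1 rises from 32.5 to 129 FPKM.

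Among proteoglycans and hyaluronan genes, 3 rose and 19 fell of 23 tested (median log2 fold change -0.90). Prelp and Lum, small leucine-rich proteoglycans, went from 112 ± 1.5 to 4.88 ± 0.525 FPKM and from 257 ± 29.6 to 24.5 ± 3.48 FPKM. Has2, the hyaluronan synthase of fibroblasts, went from 12.9 ± 1.19 to 1.12 ± 0.189 FPKM, and Cemip, which helps to degrade hyaluronan, from 30.8 ± 0.957 to 1.7 ± 0.153 FPKM. The rising members were Cd44, the hyaluronan receptor, and the hyaluronidase genes Hyal1 and Hyal2. Cd44 was 72.3, 71.7 and 88 FPKM without LiCl and 253, 208 and 212 FPKM with LiCl (log2 fold change 1.53, SE 0.20, adjusted p = 4.82e-05). Of the metalloproteinases and plasmin system, 2 rose and 21 fell of 25 tested (median log2 fold change -1.31). The aggrecanase gene Adamts5 was 18.2, 15.4 and 15.8 FPKM without LiCl and 0.439, 0.453 and 0.445 FPKM with LiCl (log2 fold change -3.59, SE 0.10, adjusted p = 2.68e-10). Plau, the urokinase that activates plasminogen, rose from 9.53 ± 0.476 to 32.4 ± 0.931 FPKM. Mmp15 was 0.471, 0.401 and 0.623 FPKM without LiCl and 30.8, 33.1 and 30.5 FPKM with LiCl (log2 fold change 4.44, SE 0.09, adjusted p = 3.14e-11), whereas Mmp14, also bound to the membrane, fell from 232 ± 19.6 to 87.4 ± 5.5 FPKM.

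The contractile genes of myofibroblasts, which serum response factor and its partners drive, fell with the matrix: 1 rose and 24 fell of 28 tested (median log2 fold change -1.19). Acta2, smooth muscle actin, was 608, 662 and 636 FPKM without LiCl and 150.0, 152 and 148 FPKM with LiCl (log2 fold change -2.07, SE 0.09, adjusted p = 5.27e-09). Myl9, a myosin light chain, went from 155 ± 43.5 to 27.4 ± 7.97 FPKM, Tagln from 381 ± 6.95 to 107 ± 5.91 FPKM, and Actb, cytoplasmic β-actin and a common reference gene, from 745 ± 153 to 279 ± 20.8 FPKM. Srf itself was 13.3, 15.8 and 16.5 FPKM without LiCl and 16, 17.3 and 16.1 FPKM with LiCl (adjusted p = 0.271). Tagln2 was the only member that rose, from 134 ± 3.35 to 182 ± 8.46 FPKM. Of the integrins, which link cells to the matrix, 7 rose and 8 fell of 18 tested (median log2 fold change 0.04), and 6 rose and 8 fell after median-of-ratios scaling. Itga11, the collagen receptor of fibroblasts, was 41.1, 39.8 and 42 FPKM without LiCl and 0.499, 0.558 and 0.556 FPKM with LiCl (log2 fold change -4.77, SE 0.07, adjusted p = 1.07e-11). Itgb5, which pairs with Itgav, went from 146 ± 11.3 to 31.7 ± 0.342 FPKM. On the other side, Itga6, a laminin receptor chain, was 1.37, 1.05 and 1.32 FPKM without LiCl and 20.6, 18.6 and 17.5 FPKM with LiCl (log2 fold change 3.15, SE 0.15, adjusted p = 1.27e-08), Itga2 went from 0.233 ± 0.0632 to 5.3 ± 0.724 FPKM, and Itga3 from 3.01 ± 0.348 to 9.8 ± 0.201 FPKM.

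Signals that act on fibroblasts were altered in both directions. Of the growth factor and IGF genes, 8 rose and 23 fell of 34 tested (median log2 fold change -1.17). The factors Fgf7 and Fgf10, which fibroblasts send to epithelia, went from 162 ± 17.9 to 6.31 ± 0.799 FPKM and from 27.2 ± 3.13 to 1.8 ± 0.194 FPKM. Fgf18, in contrast, was 0.764, 1.21 and 0.551 FPKM without LiCl and 22.9, 23.6 and 24.4 FPKM with LiCl (log2 fold change 3.76, SE 0.21, adjusted p = 5.69e-08), and Areg, a ligand of the EGF receptor, rose from 1.26 ± 0.152 to 14.3 ± 0.618 FPKM. Igfbp3, a carrier of insulin-like growth factors, was 75.4, 82.8 and 81.3 FPKM without LiCl and 3.36, 2.98 and 2.75 FPKM with LiCl (log2 fold change -4.33, SE 0.08, adjusted p = 3.14e-11), and Igf1 went from 8.2 ± 1.5 to 0.179 ± 0.0282 FPKM. Met, the receptor of hepatocyte growth factor, rose from 1.66 ± 0.254 to 8.89 ± 0.299 FPKM, while its ligand Hgf fell from 8.98 ± 1.13 to 0.518 ± 0.05 FPKM. In the TGF-β and BMP list 7 rose and 14 fell of 31 tested (median log2 fold change -0.28), and 6 rose and 18 fell after median-of-ratios scaling. Bmp2, a bone morphogenetic protein, was 2.18, 1.86 and 1.93 FPKM without LiCl and 45.6, 41.5 and 39.3 FPKM with LiCl (log2 fold change 3.85, SE 0.11, adjusted p = 4.02e-10), and Bmp4 fell from 19.1 ± 0.656 to 3.66 ± 0.176 FPKM. Fst, which binds and blocks activins, and the inhibitory Smad6 fell, Fst from 41.4 ± 2.79 to 5.37 ± 0.365 FPKM. Tgfbr2 was 24.1, 24.7 and 24.7 FPKM without LiCl and 23.3, 20.8 and 21.1 FPKM with LiCl (adjusted p = 0.138). Among YAP and TEAD pathway genes, 3 rose and 6 fell of 22 tested (median log2 fold change -0.03), and 3 rose and 12 fell after median-of-ratios scaling. Amotl2, a target and partner of YAP, was 69.3, 92 and 99.9 FPKM without LiCl and 2.45, 4.25 and 4.22 FPKM with LiCl (log2 fold change -4.25, SE 0.47, adjusted p = 1.32e-05), although the transcript with the highest mean taken alone did not pass (adjusted p = 0.127). The rising members were Stk4, Mob1b and Nuak2. Ankrd1, also a target, went from 9.55 ± 0.881 to 1.07 ± 0.114 FPKM, and Yap1 was 52.7, 48.1 and 45.9 FPKM without LiCl and 53.6, 45.5 and 44.3 FPKM with LiCl (adjusted p = 0.749).

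Genes of the Wnt pathway were looked at by role. Ctnnb1, which encodes β-catenin itself (ENSMUSG00000006932.17, chr9:120929216-120960507, forward strand), was 52.3, 43.8 and 47.4 FPKM without LiCl and 47.5, 43.2 and 39.7 FPKM with LiCl. Its transcript level did not pass the threshold (log2 fold change -0.14, SE 0.14, adjusted p = 0.414). Of the destruction complex and the transducers, 5 rose and 6 fell of 25 tested (median log2 fold change 0.01), and 4 rose and 7 fell after median-of-ratios scaling. The rising members were Apc2, Axin1, Dvl3, Tle1 and Aes, with Axin1, the scaffold of the complex, rising from 14.4 ± 0.089 to 21 ± 0.919 FPKM. Apc was 7.91, 6.73 and 6.86 FPKM without LiCl and 7.55, 5.72 and 4.48 FPKM with LiCl (adjusted p = 0.517), and the repressor gene Tle2 fell from 4.68 ± 0.17 to 0.0594 ± 0.0563 FPKM. Of the ligands and receptors, 5 rose and 12 fell of 21 tested (median log2 fold change -0.44). The ligand gene Wnt9a was 2.11, 2.79 and 2.68 FPKM without LiCl and 45.8, 47.8 and 46 FPKM with LiCl (log2 fold change 3.76, SE 0.10, adjusted p = 2.32e-10), and Wnt4 rose from 1.33 ± 0.00794 to 4.07 ± 0.363 FPKM. The receptors Fzd1, Fzd2, Fzd7 and Fzd8 fell, Fzd1 from 34 ± 0.653 to 5.02 ± 0.501 FPKM, and Fzd5, Fzd6 and Fzd10 rose, Fzd10 from 0.049 ± 0.0484 to 6.24 ± 0.507 FPKM.

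Genes by which the Wnt pathway feeds back on itself, and secreted antagonists, mostly fell: 3 rose and 16 fell of 21 tested (median log2 fold change -1.26). The 3 that rose were Axin2, Tcf7 and Znrf3. Axin2, the most widely used readout of β-catenin activity, was 0.722, 1.48 and 1.12 FPKM without LiCl and 2.71, 2.88 and 3.13 FPKM with LiCl (log2 fold change 0.90, SE 0.13, adjusted p = 0.000107). Tcf7, which encodes TCF1, was 1.39, 1.85 and 1.64 FPKM without LiCl and 5.71, 5.81 and 6.09 FPKM with LiCl (log2 fold change 1.39, SE 0.10, adjusted p = 3.23e-07). Znrf3, a ligase that removes Frizzled receptors, went from 0.958 ± 0.23 to 1.82 ± 0.395 FPKM. All 3 were low, and Lef1 stayed under 1 FPKM in both groups (adjusted p = 0.098). Rspo2, an activator of the pathway that acts through Lgr receptors, was 42.9, 37.2 and 35.6 FPKM without LiCl and 0.0785, 0.177 and 0.162 FPKM with LiCl (log2 fold change -5.12, SE 0.10, adjusted p = 3.14e-11). Its receptor Lgr5 went from 3.44 ± 0.581 to 0.0641 ± 0.028 FPKM and Lgr4 from 17 ± 1.43 to 5.17 ± 0.442 FPKM. The antagonists Sfrp1, Sfrp2, Dkk2 and Dkk3 fell, Sfrp1 from 38.5 ± 2.04 to 1.8 ± 0.21 FPKM and Dkk3 from 94.9 ± 1.66 to 17.8 ± 1.24 FPKM, and Notum, a target that inactivates Wnt proteins, went from 2.93 ± 0.536 to 0.699 ± 0.368 FPKM. The core of the TCF/LEF site, CTTTGAT on either strand, was in 3.73% of 32851 promoter windows of RefSeq (250 bases before to 50 after a start). None of the 10 genes of this list with a window held it there. This says only that these letters are not in these windows.

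Proteins that lithium acts on were also measured at the RNA level. Gsk3a was 39.2, 44.4 and 44.6 FPKM without LiCl and 38.4, 44.9 and 44.4 FPKM with LiCl (adjusted p = 0.958). Gsk3b was 15.8, 14.3 and 13.6 FPKM without LiCl and 21.5, 18.2 and 16.9 FPKM with LiCl (log2 fold change 0.35, SE 0.13, adjusted p = 0.0396), a rise that did not pass after median-of-ratios scaling. Both kinase genes, and Pgm1, were counted in 1 list with the magnesium-dependent phosphatases and the genes of inositol supply. Among its 10 tested members there were 5 rises, that of Gsk3b included, and 2 falls (median log2 fold change 0.29). With median-of-ratios scaling the list had 4 rises and 2 falls. Inpp1, inositol polyphosphate 1-phosphatase, was 5.92, 4.78 and 4.37 FPKM without LiCl and 18, 18 and 16.5 FPKM with LiCl (log2 fold change 1.63, SE 0.11, adjusted p = 3.2e-07). Impa1, inositol monophosphatase, was 15.3, 11.7 and 11.5 FPKM without LiCl and 27.5, 20.5 and 27 FPKM with LiCl (log2 fold change 0.91, SE 0.14, adjusted p = 0.00016), and Bpnt1, the bisphosphate nucleotidase, went from 13 ± 1.34 to 27.6 ± 0.901 FPKM. Slc5a3, which carries inositol into the cell, rose from 3.51 ± 0.514 to 11.8 ± 1.57 FPKM, and Isyna1, which makes inositol from glucose phosphate, fell from 3.99 ± 1.49 to 1.71 ± 0.594 FPKM, as did Pgm1. Thus 3 of the phosphatases that lithium inhibits had more transcript with LiCl, while the related Impa2 was 4.98, 4.66 and 4.05 FPKM without LiCl and 5.78, 5.63 and 5.23 FPKM with LiCl (adjusted p = 0.115).

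Glycogen synthase is the enzyme for which GSK3 was named. Gys1, its gene in tissues other than liver, was 35.4, 40.0 and 28.7 FPKM without LiCl and 9.25, 9.88 and 9.96 FPKM with LiCl (log2 fold change -1.73, SE 0.14, adjusted p = 9.88e-07). Pygl, a glycogen phosphorylase, was 24.9, 27.4 and 25.1 FPKM without LiCl and 2.78, 2.52 and 2.65 FPKM with LiCl (log2 fold change -2.87, SE 0.08, adjusted p = 3.34e-10), and Ppp1r3c, which brings a phosphatase to glycogen, went from 8.47 ± 0.66 to 0.882 ± 0.095 FPKM. Phkg2, a subunit of phosphorylase kinase, rose from 4.24 ± 2.7 to 14.4 ± 4.6 FPKM, and Gyg, Ppp1r3b and Nhlrc1 rose too. In all, 4 rose and 9 fell of 18 tested (median log2 fold change -0.18). Among genes of sodium and potassium transport and of osmotic adaptation, 8 rose and 5 fell of 19 tested (median log2 fold change 0.23), and 7 rose and 7 fell after median-of-ratios scaling. Atp1b3, a subunit of the sodium pump, rose from 72.9 ± 2.37 to 211 ± 2.93 FPKM. Akr1b3, aldose reductase, which makes the osmolyte sorbitol, was 34.5, 35.3 and 38.6 FPKM without LiCl and 114, 113 and 113 FPKM with LiCl (log2 fold change 1.63, SE 0.05, adjusted p = 7.71e-10), and its relative Akr1b8 rose from 54.7 ± 1.68 to 199.5 ± 5.2 FPKM. Sgk1, a kinase induced by salt and glucocorticoids, was 140.2, 136 and 133 FPKM without LiCl and 48.5, 47.8 and 46.3 FPKM with LiCl, so it fell while aldose reductase rose. Slc8a1, Wnk1, Stk39 and Atp1b1 were the other members that fell. Nfat5, the osmotic transcription factor, was 7.86, 12.1 and 6.29 FPKM without LiCl and 18.5, 9.15 and 19.1 FPKM with LiCl (adjusted p = 0.123).

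Heat shock proteins did not move as a block. Of the 36 genes tested, 20 rose, 8 fell and 8 did not pass the threshold, with a median log2 fold change of 0.37, and 17 rose and 10 fell after median-of-ratios scaling. Hsf1 (ENSMUSG00000022556.11, chr15:76477422-76501913, forward strand) was 8.17, 11.1 and 7.96 FPKM without LiCl and 11.2, 14.5 and 13.3 FPKM with LiCl. It was higher in each library with LiCl than in any without it, but the difference did not pass the threshold (log2 fold change 0.49, SE 0.31, adjusted p = 0.198). That fit shares its spread with the HSF1 knock-out libraries, and with the 6 WT MEF libraries alone the rise of Hsf1 passed (limma, adjusted p = 0.0287). Hspe1, the mitochondrial co-chaperonin, was 81.8, 76.1 and 70.2 FPKM without LiCl and 243, 256 and 253 FPKM with LiCl (log2 fold change 1.71, SE 0.09, adjusted p = 2.12e-08), and its partner Hspd1 went from 77.8 ± 3.56 to 111 ± 4.72 FPKM. The inducible Hspa1a and Hspa1b, near-identical copies between which reads cannot be told apart with certainty, went from 5.93 ± 0.687 to 22.1 ± 0.952 FPKM and from 11.6 ± 0.375 to 34.2 ± 1.25 FPKM. Hspa4l, a nucleotide exchange factor, rose from 6.65 ± 0.132 to 21.9 ± 1.48 FPKM, and Cryab, a small heat shock protein, from 86.7 ± 2.8 to 181 ± 59.3 FPKM. The small heat shock protein genes Hspb6 and Hspb1 fell, with Hspb6 at 48.4, 56.1 and 50.7 FPKM without LiCl and 4.41, 5.22 and 1.84 FPKM with LiCl (log2 fold change -3.53, SE 0.42, adjusted p = 2.2e-05) and Hspb1 from 146 ± 12.1 to 50.1 ± 4.45 FPKM. Serpinh1, the collagen chaperone of the endoplasmic reticulum, fell from 396 ± 61.6 to 250.3 ± 27.4 FPKM. Hspa8, the constitutive chaperone, was 342, 384 and 388 FPKM without LiCl and 383, 444 and 454 FPKM with LiCl (adjusted p = 0.0622). It passed as a rise after quantile normalization (limma, adjusted p = 0.00151), without the unnumbered library with LiCl (0.0165) and without the unnumbered library of each group (0.00692). Hsp90aa1 was 179, 202 and 133 FPKM without LiCl and 285, 196 and 203 FPKM with LiCl (adjusted p = 0.0755).

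The core of a heat shock element, GAANNTTC (its own reverse complement), was in 7.86% of all 32851 promoter windows and in those of 13 of the 28 heat shock genes with a window. A match is a description of the letters, not a bound site. Here and below the share over all windows counts windows, while a gene counts if any of its windows holds the motif. The 2 values are therefore not on the same footing. To show what such a promoter looks like, the 250 bases before the start are printed for the 2 genes of the list with a match and the smallest adjusted p (RefSeq, GRCm38.p6), with the core in capitals. It begins 84 bases before the start in Hspe1 (chr1:55087898-55088147, forward strand) and 104 bases before it in Hspa1b (chr17:34959239-34959488, reverse strand), and it overlaps no other motif searched.
Hspe1: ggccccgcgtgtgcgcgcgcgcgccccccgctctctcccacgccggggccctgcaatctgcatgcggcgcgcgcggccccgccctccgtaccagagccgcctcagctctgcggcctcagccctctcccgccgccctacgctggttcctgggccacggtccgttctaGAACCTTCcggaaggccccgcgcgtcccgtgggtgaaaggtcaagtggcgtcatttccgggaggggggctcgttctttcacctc
Hspa1b: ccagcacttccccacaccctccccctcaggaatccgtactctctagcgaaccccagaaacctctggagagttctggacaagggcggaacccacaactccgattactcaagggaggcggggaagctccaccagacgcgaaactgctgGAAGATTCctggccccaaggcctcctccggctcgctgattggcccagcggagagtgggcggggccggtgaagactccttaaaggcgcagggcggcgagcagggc

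Other parts of protein quality control rose by small amounts. For the cytosolic chaperonin TRiC and prefoldin, 10 rose and 2 fell of 13 tested (median log2 fold change 0.55), and 8 rose and 3 fell after median-of-ratios scaling. Pfdn2 and Pfdn4, prefoldin subunits, rose most, from 23.4 ± 4.96 to 57.1 ± 4.23 FPKM and from 25.5 ± 3.21 to 55.5 ± 5.28 FPKM, and Tcp1 and Cct3, both subunits of TRiC, fell. For the proteasome, 24 rose and 1 fell of 32 tested (median log2 fold change 0.33), but 15 rose and 3 fell after median-of-ratios scaling. Psmc1, an ATPase of its base, was 92.5, 92.5 and 96.8 FPKM without LiCl and 257, 268 and 269 FPKM with LiCl (log2 fold change 1.49, SE 0.05, adjusted p = 1.04e-09). Psmd1, a subunit of the cap, was the member that fell, from 62.3 ± 2.45 to 50.9 ± 2.16 FPKM.

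Metallothioneins, small proteins that bind zinc and copper, went in opposite directions. Mt2 was 967, 1150.2 and 1122 FPKM without LiCl and 182, 209.5 and 211 FPKM with LiCl (log2 fold change -2.42, SE 0.12, adjusted p = 2.55e-08), and Mt1 was 669, 940.2 and 891 FPKM without LiCl and 303, 396 and 364 FPKM with LiCl (log2 fold change -1.23, SE 0.16, adjusted p = 5.93e-05). Mt3, best known from brain, was 1.19, 1.28 and 0.772 FPKM without LiCl and 35, 51.2 and 47.8 FPKM with LiCl, so that Mt3 rose while its abundant relatives lost transcript (log2 fold change 4.45, SE 0.17, adjusted p = 2.99e-09). Of the list with zinc transporters, 6 rose and 8 fell of 17 tested (median log2 fold change -0.04). Mtf1, the factor that binds metal response elements, rose from 3.33 ± 0.158 to 6.43 ± 0.516 FPKM. The importer Slc39a6 and the exporter Slc30a4 rose from 33.5 ± 1.26 to 73.9 ± 2.81 FPKM and from 14.5 ± 2.02 to 34.7 ± 4.06 FPKM, and Slc39a13 fell from 54 ± 2.87 to 17.2 ± 2.35 FPKM. The core of a metal response element, TGCACNC or TGCGCNC on either strand, is short and was in 25.7% of all windows and in those of 8 of 15 genes of the list. Mt3 and Mt2 were the members with a match and the smallest adjusted p. The promoter of Mt2 (chr8:94172368-94172617, forward strand) is printed, with the core in capitals 223, 128 and 50 bases before the start and overlapped by no other motif searched. The window of Mt3 held none before its start.
Mt2: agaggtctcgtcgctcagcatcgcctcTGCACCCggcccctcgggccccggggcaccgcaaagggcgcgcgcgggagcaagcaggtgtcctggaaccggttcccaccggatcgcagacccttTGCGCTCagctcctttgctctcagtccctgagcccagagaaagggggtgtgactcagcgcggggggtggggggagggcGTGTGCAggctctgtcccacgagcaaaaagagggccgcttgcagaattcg

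The integrated stress response, in which kinases of eIF2α raise ATF4 and its targets, rose as a list: 23 rose and 3 fell of 31 tested (median log2 fold change 0.68), and 22 rose and 6 fell after median-of-ratios scaling. The largest rises after Gdf15 were in Atf3, Ddit3 and Ppp1r15a. Ddit3 (ENSMUSG00000025408.15, chr10:127290774-127296288, forward strand) encodes CHOP and had a log2 fold change of 3.66. Ppp1r15a, which brings a phosphatase to eIF2α, was 17.1, 15.2 and 20.0 FPKM without LiCl and 83.1, 97.1 and 97.4 FPKM with LiCl (log2 fold change 2.35, SE 0.16, adjusted p = 2.25e-07). Atf5, a factor of the same family, went from 78.9 ± 5.5 to 268 ± 2.24 FPKM, Trib3, a pseudokinase induced by CHOP, from 3.89 ± 0.377 to 14.7 ± 1.08 FPKM, and Sesn2, a leucine sensor of mTORC1, from 27.6 ± 1.43 to 72 ± 1.73 FPKM. In contrast, Asns, asparagine synthetase and a standard ATF4 target, was 25.7, 22.3 and 20.9 FPKM without LiCl and 19.7, 18.3 and 22.5 FPKM with LiCl (adjusted p = 0.135). Chac1 was 4.14, 4.52 and 4.64 FPKM without LiCl and 3.25, 4.06 and 3.71 FPKM with LiCl (adjusted p = 0.2), and Nupr1 was 59.7, 51.9 and 91.6 FPKM without LiCl and 35.9, 65.9 and 33.5 FPKM with LiCl (adjusted p = 0.203). The members that fell were Cebpb, Stc2 and Vegfa, Cebpb from 235 ± 41.5 to 67.1 ± 6.09 FPKM. Of the aminoacyl-tRNA synthetases, several of which ATF4 controls, 10 rose and 2 fell of 20 tested (median log2 fold change 0.41), and 10 rose and 5 fell after median-of-ratios scaling. Cars and Aars rose from 23.6 ± 1.54 to 66.8 ± 6.32 FPKM and from 29.5 ± 1.13 to 73.1 ± 1.86 FPKM, while Eprs and Vars fell.

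The core of the amino acid response element, TGATGCAA on either strand, was in 0.895% of all windows and in those of 5 of 27 genes of this list. The promoter of Atf3 (chr1:191183334-191183583, reverse strand) is printed as the member with a match and the smallest adjusted p. It holds the core 110 bases before the start as its reverse complement, in capitals, with no overlap with another motif. Atf3 was 1.62, 1.88 and 1.96 FPKM without LiCl and 50.2, 57.1 and 52.9 FPKM with LiCl (log2 fold change 4.27, SE 0.37, adjusted p = 1.78e-06).
Atf3: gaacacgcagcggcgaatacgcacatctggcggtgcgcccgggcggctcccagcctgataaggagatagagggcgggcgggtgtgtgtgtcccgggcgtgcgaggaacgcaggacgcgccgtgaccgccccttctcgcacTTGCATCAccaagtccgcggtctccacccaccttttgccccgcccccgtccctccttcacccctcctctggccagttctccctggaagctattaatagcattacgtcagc

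Genes of the unfolded protein response of the endoplasmic reticulum did not follow. Here 7 rose and 11 fell of 24 tested (median log2 fold change -0.32), and 4 rose and 13 fell after median-of-ratios scaling. Xbp1, whose spliced form activates the chaperones of that compartment, was 59.4, 51.6 and 52.2 FPKM without LiCl and 13.8, 6.75 and 5.6 FPKM with LiCl (log2 fold change -2.6, SE 0.24, adjusted p = 2.83e-06). Hsp90b1 and Pdia6, chaperones of the same compartment, went from 404 ± 6.25 to 184 ± 1.95 FPKM and from 129.8 ± 2.58 to 59.9 ± 1.03 FPKM, and P4hb, also a subunit of collagen prolyl hydroxylase, from 385 ± 8.91 to 218 ± 4.76 FPKM. Hspa5, which encodes BiP, was 127, 332 and 133 FPKM without LiCl and 50.5, 128 and 131 FPKM with LiCl, with 1 library far from the others of its group (adjusted p = 0.123). Ern1, the sensor that splices Xbp1, rose from 5.67 ± 0.406 to 18 ± 0.721 FPKM, and Dnajb9 and Edem1, which act in degradation, from 22.5 ± 5.89 to 48.7 ± 5.58 FPKM and from 16.4 ± 1.37 to 39.1 ± 1.83 FPKM.

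The proton pump of lysosomes rose nearly as a whole. Of the vacuolar ATPase subunits, 15 rose and 0 fell of 17 tested (median log2 fold change 1.41), and 15 rose and 1 fell after median-of-ratios scaling. The summed level ran from 0.239 to 0.263% of all FPKM in the libraries without LiCl and from 0.632 to 0.657% in those with LiCl. Atp6v1c1, a subunit of the stalk, was 22, 23.9 and 21.3 FPKM without LiCl and 106, 112 and 107 FPKM with LiCl (log2 fold change 2.23, SE 0.10, adjusted p = 6.31e-09). Atp6v0e2 went from 4.16 ± 0.236 to 26.1 ± 1.11 FPKM, Atp6ap2, an accessory subunit also known as the prorenin receptor, from 34.2 ± 1.92 to 134 ± 3.22 FPKM, and Atp6v1a, the catalytic subunit, from 42.1 ± 2.99 to 114 ± 8.94 FPKM. The alternative membrane subunits Atp6v0a1 and Atp6v0a2 were the exceptions, with Atp6v0a2 at 10.01, 15.1 and 15.2 FPKM without LiCl and 11.4, 11.1 and 10.1 FPKM with LiCl (adjusted p = 0.286) and Atp6v0a1 at 10.1, 10.03 and 10.3 FPKM without LiCl and 8.57, 5.33 and 9.11 FPKM with LiCl (adjusted p = 0.12).

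Lysosomal hydrolases and membrane proteins were more mixed: 29 rose and 6 fell of 45 tested (median log2 fold change 0.61), and 22 rose and 12 fell after median-of-ratios scaling. Man2b1, lysosomal α-mannosidase, was 20.1, 21.1 and 22.7 FPKM without LiCl and 138, 147 and 149 FPKM with LiCl (log2 fold change 2.71, SE 0.06, adjusted p = 9.66e-11). Gla, α-galactosidase A, was 13.1, 12.4 and 11.8 FPKM without LiCl and 48.7, 43.7 and 47.6 FPKM with LiCl (log2 fold change 1.82, SE 0.07, adjusted p = 1.91e-09), and Ctns, the cystine transporter, rose from 7.38 ± 0.726 to 26.9 ± 1.68 FPKM. Gm2a, the activator protein for ganglioside breakdown, fell from 20.9 ± 0.97 to 7.58 ± 0.548 FPKM, and Galns, Acp5, Naglu, Arsb and Smpd1 were the other members that fell. Of the cathepsins and cystatin C, 5 rose and 5 fell of 13 tested (median log2 fold change -0.12). Ctsd, an aspartic protease, was 628, 728 and 729 FPKM without LiCl and 1083, 1335 and 1295 FPKM with LiCl (log2 fold change 0.83, SE 0.12, adjusted p = 8.21e-05), Ctsb rose from 237 ± 13.1 to 419 ± 26 FPKM, and Ctsk, Ctsz and Lgmn rose too. Ctss, the cathepsin of antigen-presenting cells, fell from 4.94 ± 0.537 to 0.47 ± 0.301 FPKM and Ctsh from 32.7 ± 22.6 to 8.36 ± 2.97 FPKM, and Ctsc, Ctso and Cst3, cystatin C itself, fell too. Ctsl was 362, 387 and 473 FPKM without LiCl and 296, 400.0 and 386 FPKM with LiCl (adjusted p = 0.35).

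The factors TFEB, TFE3 and MITF bind CLEAR elements in promoters of lysosomal genes. The core used here, TCACGTGA, its own reverse complement, was in 0.974% of all windows and in those of 3 of 36 lysosomal genes with a window. It contains the E-box CACGTG, which was in 7.15% of all windows. The promoters of Gla (chrX:134601006-134601255, reverse strand) and Mcoln1 (chr8:3500269-3500518, forward strand) are printed as the 2 members with a match and the smallest adjusted p. The core, in capitals, begins 228 and 195 bases before the start in Gla and 46 bases before it in Mcoln1. Mcoln1, a lysosomal calcium channel, went from 20.6 ± 1.62 to 41.1 ± 3.24 FPKM (log2 fold change 0.96, SE 0.10, adjusted p = 9.24e-06).
Gla: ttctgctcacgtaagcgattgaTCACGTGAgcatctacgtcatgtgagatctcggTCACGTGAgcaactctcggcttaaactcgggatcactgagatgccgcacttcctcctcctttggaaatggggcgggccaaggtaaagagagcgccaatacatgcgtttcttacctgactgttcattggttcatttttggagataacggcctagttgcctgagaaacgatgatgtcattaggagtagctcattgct
Mcoln1: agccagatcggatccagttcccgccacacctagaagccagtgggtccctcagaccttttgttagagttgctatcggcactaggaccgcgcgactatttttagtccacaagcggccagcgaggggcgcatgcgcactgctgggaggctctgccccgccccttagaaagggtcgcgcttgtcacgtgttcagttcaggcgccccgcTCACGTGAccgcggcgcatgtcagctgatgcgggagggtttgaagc

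The transcript of the factors themselves did not rise: Tfe3 fell from 22.7 ± 1.24 to 11.3 ± 3.24 FPKM, Tfeb was 2.46, 3.68 and 4.11 FPKM without LiCl and 2.85, 3.3 and 1.58 FPKM with LiCl (adjusted p = 0.218) and Mitf was 8.24, 5.64 and 5.82 FPKM without LiCl and 7.89, 6.95 and 6.53 FPKM with LiCl (adjusted p = 0.451). Genes of the complexes that hold them in the cytoplasm moved in both directions or did not pass. Flcn, folliculin, which with its partners sets the RagC and RagD GTPases, was 5.36, 1.15 and 7.95 FPKM without LiCl and 47.9, 46.3 and 46.1 FPKM with LiCl (log2 fold change 3.27, SE 0.43, adjusted p = 5.09e-05). Rragd, which encodes RagD, was 0.608, 0 and 0.948 FPKM without LiCl and 12, 10.3 and 11.9 FPKM with LiCl (log2 fold change 3.08, SE 0.20, adjusted p = 1.73e-07), and the partners of folliculin, Fnip1 and Fnip2, rose from 10.6 ± 1.96 to 34.6 ± 4.43 FPKM and from 1.95 ± 0.351 to 13.2 ± 1.79 FPKM. Lamtor3 and Lamtor5 also rose, Lamtor2 fell from 70.1 ± 8.43 to 48.5 ± 10.1 FPKM, and Rraga, Rragc, Lamtor1 and Lamtor4 did not pass. Rragc, which encodes RagC, was 35.7, 46.6 and 21.8 FPKM without LiCl and 17.2, 12.8 and 13.3 FPKM with LiCl (adjusted p = 0.18), and passed as a fall with the 6 WT MEF libraries alone (limma, adjusted p = 0.0104). Over that list 10 rose and 3 fell of 21 tested (median log2 fold change 0.17), and 8 rose and 3 fell after median-of-ratios scaling, with Tfec falling beside Tfe3 and Lamtor2 as deposited. Of the autophagy genes, 12 rose and 7 fell of 29 tested (median log2 fold change 0.27), and 10 rose and 9 fell after median-of-ratios scaling. Sqstm1, the cargo receptor p62, was 162, 184 and 168 FPKM without LiCl and 535, 588 and 572 FPKM with LiCl (log2 fold change 1.72, SE 0.07, adjusted p = 3.12e-09). Atg9b went from 0.694 ± 0.124 to 13 ± 1.21 FPKM and Atg16l1, which directs LC3 lipidation, from 4.5 ± 4.66 to 14.6 ± 1.86 FPKM. The receptor gene Bnip3, a target of hypoxia factors, fell from 261 ± 29.4 to 73.9 ± 4.07 FPKM, and Map1lc3a from 66.1 ± 5.62 to 22 ± 4.64 FPKM.

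**Figure D4:**
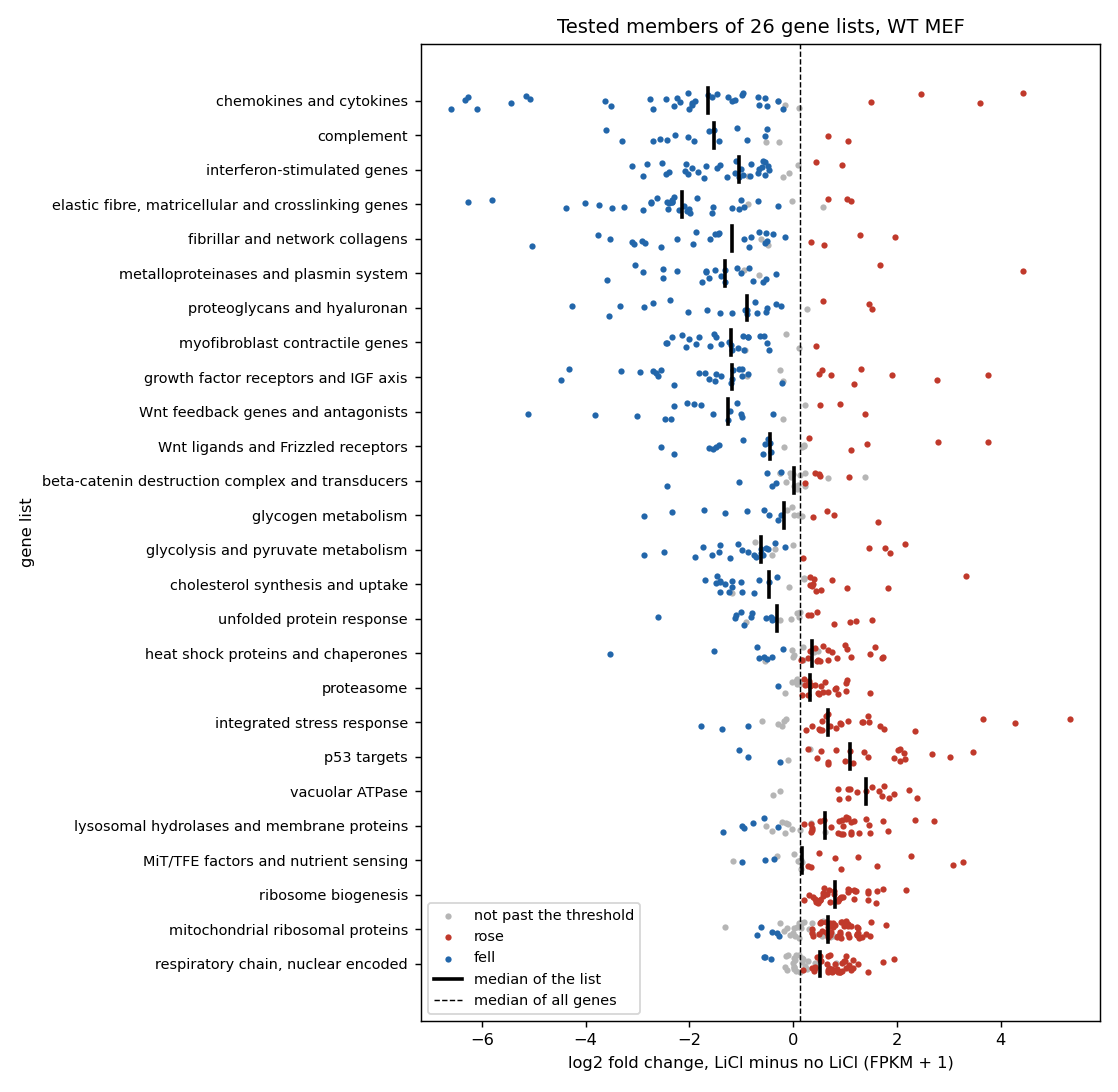
Log2 fold change of the tested members of 26 gene lists in WT MEF, LiCl minus no LiCl on the log2(FPKM + 1) scale. Each point is a gene, red if it rose, blue if it fell and grey otherwise, the short black bar is the median of the list and the dashed line the median of all genes, 0.13. Lists of inflammation, matrix and contraction lie to the left and those of the vacuolar ATPase (median 1.41), p53 targets and ribosome biogenesis to the right.

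Lists of lipid metabolism moved in both directions. Of the genes of cholesterol synthesis and uptake, 11 rose and 16 fell of 31 tested (median log2 fold change -0.46), and 7 rose and 16 fell after median-of-ratios scaling. Cyp51, a demethylase of the pathway, went from 23.9 ± 1.08 to 6.7 ± 0.403 FPKM, and Sqle, squalene epoxidase, from 28.8 ± 4.61 to 10.1 ± 0.73 FPKM. Abcg1, which exports cholesterol, was 2.86, 2.79 and 2.58 FPKM without LiCl and 36.3, 39.3 and 35.2 FPKM with LiCl (log2 fold change 3.34, SE 0.07, adjusted p = 5.9e-11), and Lpin1, a phosphatidate phosphatase, rose from 13.1 ± 0.323 to 49.3 ± 4.21 FPKM. Of the fatty acid genes, 4 rose and 7 fell of 16 tested (median log2 fold change -0.22), and 3 rose and 10 fell after median-of-ratios scaling. Fads3 and Acaca fell, Acaca, the enzyme that commits acetyl-CoA to fatty acids, from 7.55 ± 0.57 to 3.25 ± 0.499 FPKM, and Elovl1 rose from 35.6 ± 1.89 to 75.3 ± 8.85 FPKM, as did Acacb, Fads2 and Gpam. Fasn was 19.9, 20.4 and 20.7 FPKM without LiCl and 19.4, 19.2 and 24.2 FPKM with LiCl (adjusted p = 0.786).

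Of the genes of glycolysis and pyruvate metabolism, 5 rose and 20 fell of 29 tested (median log2 fold change -0.62). Ldha, the lactate dehydrogenase of muscle type, was 862, 1001 and 986 FPKM without LiCl and 356, 454 and 414 FPKM with LiCl (log2 fold change -1.22, SE 0.13, adjusted p = 7.69e-06). Ldhb, the heart type, was 42.9, 44.8 and 45.7 FPKM without LiCl and 158, 174 and 164 FPKM with LiCl (log2 fold change 1.87, SE 0.06, adjusted p = 6.81e-10), so the 2 genes moved apart. Slc16a1 and Slc16a3, the lactate transporters, fell from 56.7 ± 3.18 to 6.91 ± 0.539 FPKM and from 105 ± 7.65 to 30.8 ± 2.96 FPKM. The kinases that shut off pyruvate dehydrogenase split as well: Pdk1 went from 26.4 ± 1.96 to 6.38 ± 0.454 FPKM and Pdk4 was 23.8, 22.9 and 22.1 FPKM without LiCl and 114, 102 and 103 FPKM with LiCl (log2 fold change 2.17, SE 0.09, adjusted p = 5.14e-09). The other members that rose were Eno2, Pfkfb2 and Pdk3. Of the glutamine, serine and one-carbon genes, 14 rose and 8 fell of 27 tested (median log2 fold change 0.28), and 13 rose and 9 fell after median-of-ratios scaling. Mthfd1, the cytosolic folate enzyme, was 9.94, 10.02 and 8.79 FPKM without LiCl and 59.5, 68.1 and 67.9 FPKM with LiCl (log2 fold change 2.64, SE 0.08, adjusted p = 3.72e-10), whereas its mitochondrial relative Mthfd1l fell from 19.9 ± 0.612 to 4.62 ± 0.211 FPKM. Pycr1, which makes proline, an abundant residue of collagen, went from 6.36 ± 0.828 to 0.147 ± 0.108 FPKM, and Psat1, of serine synthesis, from 3.97 ± 0.831 to 11.4 ± 1.35 FPKM.

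Many genes of ribosome biogenesis, of mitochondrial ribosomal proteins and of the nuclear part of the respiratory chain rose, most by small amounts. For nuclear genes of the respiratory chain, 38 rose and 3 fell of 63 tested (median log2 fold change 0.52), and 33 rose and 6 fell after median-of-ratios scaling. Ndufb6 and Ndufa12 of complex I rose most, from 77.8 ± 3.51 to 304 ± 11.4 FPKM and from 26.8 ± 2.66 to 91 ± 3.85 FPKM, and Ndufs7, Uqcrh and Atp5e fell. Of the 13 genes encoded in mitochondria, mt-Nd4 among them, 6 rose and none fell, and 4 rose and none fell after median-of-ratios scaling. Among them, mt-Atp6 was 157, 106 and 126 FPKM without LiCl and 1133, 206 and 225 FPKM with LiCl, with the unnumbered library far above the others with LiCl. Of the mitochondrial ribosomal proteins, 48 rose and 5 fell of 78 tested (median log2 fold change 0.67), and 46 rose and 7 fell after median-of-ratios scaling. Mrps22 was 14.3, 13.3 and 13.2 FPKM without LiCl and 49.9, 48.7 and 49.1 FPKM with LiCl (log2 fold change 1.78, SE 0.06, adjusted p = 7.83e-10), and Mrpl24, Mrpl33, Mrpl48, Mrps12 and Mrps26 fell. Of the cytosolic ribosomal proteins, 44 rose and 10 fell of 84 tested (median log2 fold change 0.26), but 22 rose and 12 fell after median-of-ratios scaling. With single libraries left out, 33 to 44 of them rose. After median-of-ratios scaling neither these genes nor those encoded in mitochondria rose in a larger share than all genes (3816 of 12279). Rps27l, which p53 also induces, rose most, from 257 ± 44.1 to 520.5 ± 91.3 FPKM, and Rpl10a fell from 287 ± 11.6 to 89.2 ± 4.6 FPKM. Of the ribosome biogenesis genes, 38 rose and 0 fell of 40 tested (median log2 fold change 0.80), and 36 rose and 0 fell after median-of-ratios scaling. Rrp9, part of the particle that processes ribosomal RNA, was 6.48, 6.71 and 4.43 FPKM without LiCl and 31.8, 28.1 and 29.9 FPKM with LiCl (log2 fold change 2.18, SE 0.21, adjusted p = 3.96e-06), and Fbl, fibrillarin, went from 27.1 ± 2.89 to 57.7 ± 2.33 FPKM. Myc, the best known activator of these genes, was 13.7, 18.1 and 15 FPKM without LiCl and 2.8, 2.51 and 3.33 FPKM with LiCl, so its own transcript fell while the list rose (log2 fold change -2.09, SE 0.15, adjusted p = 5.27e-07). Of the MYC, MAX and MXD network, 3 rose and 4 fell of 10 tested (median log2 fold change 0.02), and 2 rose and 4 fell after median-of-ratios scaling, with Max, Mga and Mlx rising and Mnt, Mxi1 and Mxd4 falling beside Myc.

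The list of p53 targets, in which Trp53 itself and Mdm4 were also counted, mostly rose. Of 25 tested, 20 rose and 3 fell (median log2 fold change 1.1). Trp53 was 44.6, 57.4 and 54.9 FPKM without LiCl and 111, 159.6 and 168 FPKM with LiCl (log2 fold change 1.45, SE 0.15, adjusted p = 1.01e-05). Its transcript with the highest mean taken alone did not pass (limma, adjusted p = 0.071). Perp, a membrane protein of apoptosis and cell contacts, was 13.7, 14.4 and 11 FPKM without LiCl and 152, 154 and 152 FPKM with LiCl (log2 fold change 3.46, SE 0.09, adjusted p = 2.6e-10). Pmaip1, which encodes the death protein NOXA, went from 22.8 ± 2.09 to 191 ± 9.39 FPKM, and Mdm2, the ligase that degrades p53, from 10.5 ± 1.62 to 46.5 ± 4.87 FPKM. Cdkn1a, the most used p53 target, was among the abundant genes of both groups, with 686, 758 and 739 FPKM without LiCl and 642, 691 and 694 FPKM with LiCl (adjusted p = 0.183). Dcxr, Btg2 and Bbc3 were the members that fell. Of the NRF2 targets and iron genes, 9 rose and 10 fell of 27 tested (median log2 fold change -0.08). Srxn1 and Nqo1, which counter oxidants, rose from 34.7 ± 2.1 to 83.5 ± 4.68 FPKM and from 39.9 ± 5.42 to 80.9 ± 4.87 FPKM, and Gstm1 fell from 54.5 ± 3.7 to 25.5 ± 3.59 FPKM. Prdx1 was 176, 238 and 234 FPKM without LiCl and 206, 212 and 224 FPKM with LiCl (adjusted p = 0.994). Of the D-type cyclins and CDK inhibitors, 6 rose and 1 fell of 15 tested (median log2 fold change 0.12), but 4 rose and 4 fell after median-of-ratios scaling. Rb1, the retinoblastoma gene, was 9.49, 8.63 and 8.66 FPKM without LiCl and 30.2, 25.6 and 25.4 FPKM with LiCl (log2 fold change 1.5, SE 0.12, adjusted p = 9.09e-07), and Ccnd1, a target of β-catenin and a substrate of GSK3 as a protein, went from 81.8 ± 3.35 to 112 ± 4.92 FPKM. Cdkn2d was the member that fell as deposited.

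Of the calls named here, 21 did not pass in every leave-out. Without the unnumbered library without LiCl, the call was lost for Atp1b1, Bcl2, Ccnb2, Cct3, Dvl3, Eprs, Erap1, Fzd5, Mrpl24, Mrpl48 and Tfec (limma, adjusted p = 0.0516 to 0.123). Without library 1 without LiCl, the call was lost for Atp1b1, Bbc3, Bcl2, Cct3, Gsk3b, Max, Mrpl48, Pdk3, Tcp1, Tfec, Vars and mt-Atp6 (limma, adjusted p = 0.0699 to 0.155). Without library 2 without LiCl, the call was lost for Bbc3, Ccnb2, Fzd5, Gpam, Gsk3b, Hyal2, Isyna1, Mrpl24, Mrpl48, Pdk3, Tcp1, Vars and mt-Atp6 (limma, adjusted p = 0.0515 to 0.188). Without the unnumbered library with LiCl, the call was lost for Atp1b1, Bbc3, Ccnb2, Cct3, Fzd5, Gsk3b, Hyal2, Isyna1, Mrpl24, Mrpl48, Pdk3, Tcp1, Tfec and Vars (limma, adjusted p = 0.0583 to 0.145). Without library 1 with LiCl, the call was lost for Bbc3, Bcl2, Dvl3, Eprs, Fzd5, Gsk3b, Hyal2, Mrpl24, Pdk3, Tcp1, Tfec and Vars (limma, adjusted p = 0.0506 to 0.156). Without library 2 with LiCl, the call was lost for Atp1b1, Bbc3, Bcl2, Ccnb2, Cct3, Dvl3, Fzd5, Hyal2, Max, Mrpl24, Mrpl48, Pdk3, Tcp1 and Vars (limma, adjusted p = 0.0505 to 0.187). Of the genes given as not past the threshold, Hsp90aa1 (limma, adjusted p = 0.0378) passed as a rise and Lef1 (0.031) as a fall without library 1 without LiCl, Mitf (0.0439) as a rise without the unnumbered library without LiCl, and Nfat5 (0.0416) and Rraga (0.0319) as rises without library 1 with LiCl.

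Each transcript was also tested on its own. Of 23003 tested, 4934 rose (21.4%) and 3325 fell (14.5%). Among 5649 genes with at least 2 tested transcripts, 144 had a rising and a falling transcript. In 65 of these the gene as a whole did not pass. A further measure was the share of a transcript in the FPKM of its gene, in genes with at least 5 FPKM in both groups. Of 11569 transcripts in 4440 genes, 220 (1.9%) changed their share by at least 10 percentage points at an adjusted p under 0.05. They lay in 148 genes. Their libraries did not overlap between the groups, which the selection itself favours, so this adds no support. In 90 of these 148 genes the leading transcript without LiCl was not the leading one with LiCl. The share of the new leader did not itself pass in each of them, and genes with no called share were not counted. The count depended on single libraries, with 122, 119 and 129 transcripts when the unnumbered library, library 1 or library 2 without LiCl was left out and 136, 109 and 108 when the corresponding library with LiCl was left out. The shares are StringTie estimates of overlapping transcripts, and how well the program split the reads was not tested.

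Among the 90 genes, the start sites of the old and the new leading transcript lay more than 100 bases apart in 43 (47.8%) and their ends in 43 (47.8%). In 3674 other genes with 2 or more transcripts the first and second transcript differed that way in 52.4 and 58.4%. These other genes can include changes of leader without a called share. Zbtb6, a zinc finger gene on chromosome 2, showed the largest change of share: Zbtb6-201, which starts inside the longer transcript, went from 98.2 to 0.2% of the gene (adjusted p = 0.0317) and Zbtb6-202, which starts further upstream (chr2:37425503-37443171), from 1.8 to 99.8%. The ends of the 2 transcripts nearly coincide. Elf4, an ETS factor gene on the X chromosome, changed in the same manner. Elf4-202 went from 100 to 9.5% and Elf4-201, which starts upstream of it (chrX:48411049-48463132), was listed at 0 in each library without LiCl and had 18.88 FPKM on average with LiCl (adjusted p = 2.78e-05). In Slc44a2, a choline transporter-like gene, Slc44a2-201 went from 84 to 0%, listed at 0 in each library with LiCl, and Slc44a2-210, with a start upstream, from 5.9 to 90%. H6pd, a dehydrogenase of the endoplasmic reticulum, went from H6pd-202 (83.6 to 5%) to H6pd-201 (9.4 to 92.1%). In Nt5c3, a nucleotidase gene, Nt5c3-202 was listed at 0 without LiCl and held 83.2% with it.

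Other pairs of transcripts differed at the end, at the start or at both. Dhrs7b-201 went from 96.8 to 8.6% and Dhrs7b-202, whose end lies further downstream (chr11:60830679-60860195), from 3.2 to 91.4%. Rnaset2b-201, of a lysosomal ribonuclease gene with the near-identical copy Rnaset2a, went from 99.7 to 7.2%, an estimate that the copy makes uncertain. In Bcl9l, which encodes a co-activator of β-catenin, Bcl9l-203 went from 87.2 to 2% (adjusted p = 0.0261) and Bcl9l-206 from 8.9 to 66.3% (adjusted p = 0.075). Their start sites lie 4422 and their ends 1474 bases apart. The gene total of Bcl9l was 27, 29.8 and 32.1 FPKM without LiCl and 33.5, 32.6 and 38.8 FPKM with LiCl (adjusted p = 0.098), so it did not pass while its transcripts moved. Tmcc2-203 was listed at 0 without LiCl and held 83.1% with it (adjusted p = 0.00186). It differs from Tmcc2-201 mainly at the start, where the sites lie 963 bases apart. Eps8-203, of a regulator of actin, held 81.6% with LiCl and was listed at 0 without it (adjusted p = 6.98e-08). The other Eps8 transcripts varied widely between the libraries without LiCl, where Eps8-201 held from 3.8% up to the whole of the gene.

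**Figure D5:**
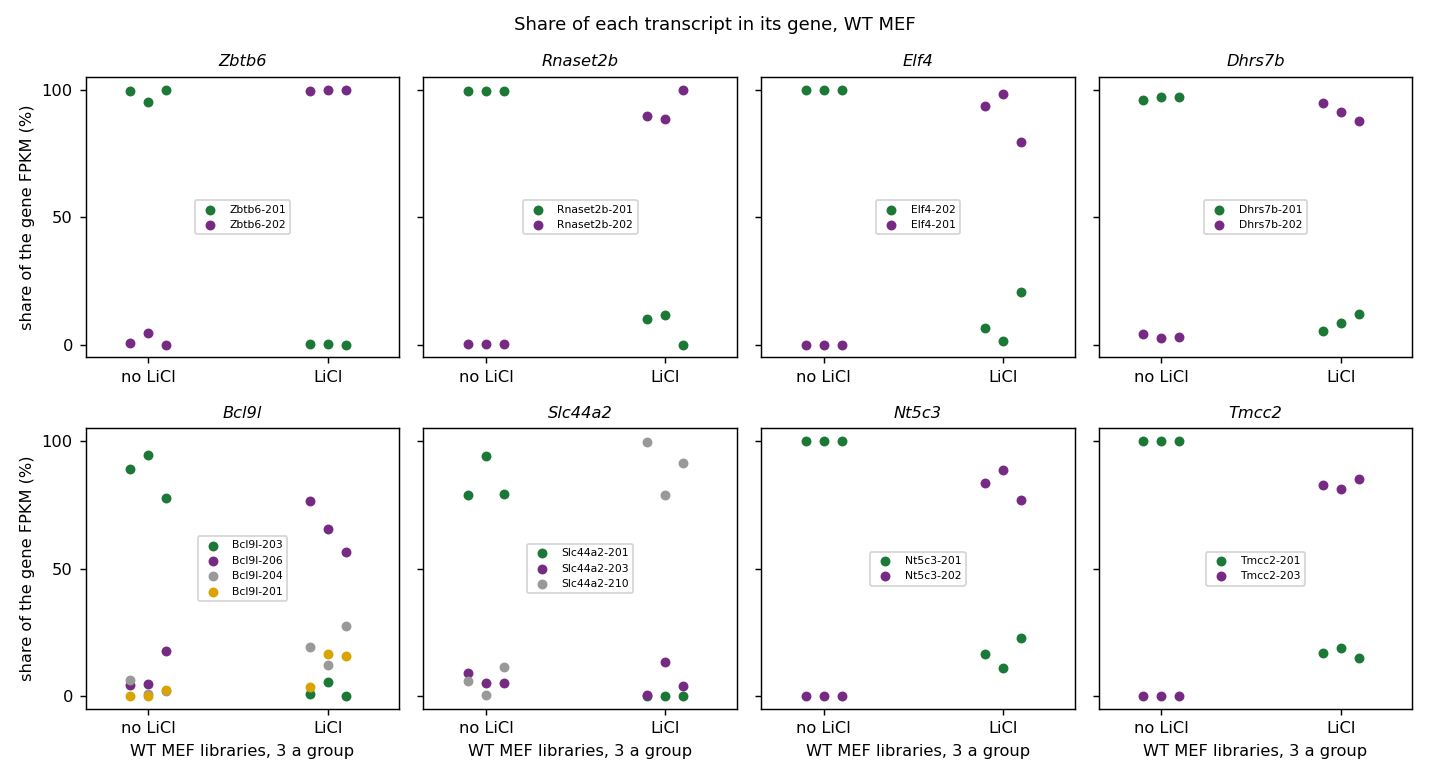
Share of each transcript in the FPKM of its gene (percent) in each WT MEF library, without and with LiCl, for the 8 genes with the largest change of share. Each point is a library and each colour a transcript. In Zbtb6 the leading transcript falls from 98.2 to 0.2%, and in Elf4 from 100 to 9.5%.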

How the data were processed

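The authors sequenced stranded libraries made from RNA of MEF of both genotypes. Per the submitters' processing notes, reads were trimmed with cutadapt, aligned with HISAT2 (version 2.0.5) to GRCm38 and assembled into transcripts with StringTie. No source used here gives their order and options or the annotation release. The deposited values are FPKM per transcript and library. No source names the unit, which was read from the values: they are not whole, and the sums differ between libraries. Each deposited transcript had a mean of at least 0.5 FPKM in at least 1 of the 4 groups, so rows low in every group had been removed before. Whole reads could not be recovered from the low values, so no count test was run and the depth stays unknown.

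Transcripts were matched by Ensembl ID, without the version, to GENCODE release M21 of the mouse (70 of 27185 did not match) and summed to genes. Genes that averaged 0.5 FPKM or more across the 12 libraries were tested with limma (version 3.58.1, R 4.3.3, moderated test with trend) on log2(FPKM + 1) with 4 group means, which left 8 residual degrees of freedom. Adjusted p-values are Benjamini-Hochberg values over all genes tested and the threshold was 0.05. Transcripts were tested in the same way, and their shares on the arcsine square root scale, for transcripts that held at least 5% of a gene. The code was tested on simulated data. Tables and plots were made in Python 3.11.15. Promoters are those of the RefSeq table for GRCm38.p6. It held a window for 9601 of 12272 tested symbols (78.2%), so motif shares were not compared between called groups. Alternatives were another pseudocount (0.1), no filter or a filter at 2 FPKM, median-of-ratios and quantile scaling, the transcript with the highest mean in place of the sum, the 6 WT MEF libraries alone, a replicate block, and leaving out each library.

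The members and the 58 gene lists were chosen with earlier results of these data known. Genes named by rule were the 10 with the largest rise and fall by fold and by FPKM, up to 5 members per list with the smallest adjusted p and up to 3 abundant members past no threshold, the 10 transcripts with the largest change of share, Hsf1 and Ctnnb1. For fold and FPKM the rule asked for no overlap between the groups and a mean of at least 1 FPKM. All other genes named here were chosen after their values were seen. Some genes of the lists and of that rule are not reported here. Near-identical genes are uncertain where StringTie could split their reads.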

Additional observations from a re-analysis of the deposited data

Results flagged for a closer look

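The genes with the 10 largest rises and the 10 largest falls in WT MEF were also tested for a difference between the LiCl response of WT MEF and that of HSF1 KO MEF (interaction contrast of the same limma fit, 3 libraries a group). These 20 genes were chosen for their size in WT MEF, so a smaller response in the other genotype is what the choice favours, and the count is no independent evidence. The difference passed the threshold in 19 of the 20, with adjusted p-values from 1.49e-08 to 0.00184. In each of these 19 both genotypes moved the same way and WT MEF moved further. The share of all tested genes that passed this contrast is not given here, so the 19 cannot be set against it. The levels in HSF1 KO MEF are not given either, and on this scale a fall can be no larger than the level without LiCl allows.

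Among the rising genes, the log2 response of WT MEF minus that of HSF1 KO MEF was largest for Gdf15 (4.03) and Mt3 (2.67). The log2 fold change of Gdf15 was 5.33 in WT MEF against 1.30 without HSF1, and that of Mt3 was 4.45 against 1.78. The difference was smaller for Palm3 (1.30), Rhbdl2 (1.73), Tbc1d8 (1.03), Mmp15 (1.33), Slc4a11 (1.65), Plek2 (1.52) and Depdc7 (1.38). Among the falling genes it was largest for Tslp (-4.61), Ptx3 (-3.84) and Tnfsf11 (-3.36). The fold change of Tslp was -6.10 in WT MEF against -1.49 without HSF1, and that of Ptx3 was -6.32 against -2.48. The others were Cxcl5 (-2.59), Lox (-2.81), Il6 (-1.75), U90926 (-2.78), Serpina3g (-0.98), Ccn5 (-1.79) and Steap4 (-2.91). Prl2c2 was the gene whose difference did not pass (0.04, adjusted p = 0.881). The groups hold 3 libraries each, so single libraries that lie apart were not searched for.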

How the results depend on the processing

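Under every alternative run, the counts of genes that rose and that fell stayed within 1.5 times those reported, with 6828 to 8389 genes called (8010 as reported). Leaving out each library gave 4368 to 4562 rising and 3120 to 3169 falling genes. A fit without the unnumbered library of each group, chosen after seeing the data, gave 4403 and 3082. With a pseudocount of 0.1, 518 genes rose and 801 fell by over 2 on the log2 scale, since low genes then change more. Transcripts with a changed share were the least stable: 799 by limma's diffSplice, 113 with the 6 WT MEF libraries alone, and 108 to 136 when a library was left out (220 as reported). Samples with the same number deviated together at most weakly, so the numbers were not taken to pair them. The correlations were 0.2 for the unnumbered libraries, 0.02 for library 1 and 0.07 for library 2. Still, the unnumbered library had the lowest summed FPKM in both WT MEF groups (357352 without LiCl and 347858 with LiCl). Its 100 most abundant genes also held the smallest share of that sum, 27.3 and 22.55%. Whether the unnumbered libraries shared a batch was not tested. With the replicate block 4873 genes rose and 3443 fell, and 147 transcripts changed their share. With it Hspa8 passed as a rise (adjusted p = 0.0015) and Vim as a fall (0.0268).

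Of 9884 values for 620 named genes, 9540 kept their direction and their side of the threshold, 164 in 51 genes lost the call, 168 in 75 genes gained it and 12 in 12 genes changed direction. Under median-of-ratios scaling Stip1 changed to -0.166, and Saa3 to 0 under quantile normalization by construction. With the transcript of the highest mean in place of the sum, log2 fold changes became 0.136 for Acp5, -4.15 for Bcl9l, 0.571 for Cdkn2d, -0.743 for Csnk1d, -1.47 for Elf4, -0.23 for Hyal2, 0.321 for Insig2, 0.554 for Mrpl24, -1.312 for Nt5c3 and 0.131 for Vegfa. These are changes of a single transcript against its gene. Under the same alternative 31 named genes lost the call and 13 gained it. Among those that lost it were Trp53 (limma, adjusted p = 0.071), Ldha (0.217), Impa1 (0.242), Tfe3 (0.0796), Igf1 (0.0667) and Sqle (0.0999). Of 1856 counts of list members, 1792 stayed within 1.5 times and 64 in 25 lists moved further. The number of reads is unknown, so no limit from depth was set.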

Other observations

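Other gene lists were described in the same way, with no list test. Of the Notch pathway genes, 7 rose and 8 fell of 16 tested (median log2 fold change -0.25). The receptors Notch1 and Notch3 rose from 2.57 ± 0.171 to 10.3 ± 0.0972 FPKM and from 8.88 ± 0.595 to 43.7 ± 1.3 FPKM (SD, n = 3, as below), and Notch2 fell from 15.3 ± 0.189 to 8.69 ± 0.262 FPKM. Jag1, a ligand, rose from 3.47 ± 0.203 to 6.72 ± 0.305 FPKM. The target gene Nrarp went from 0.0556 ± 0.0164 to 1.52 ± 0.153 FPKM and Hey2 from 0.0638 ± 0.0208 to 1.19 ± 0.272 FPKM, whereas the targets Hes1 and Hey1 fell, Hes1 from 15.6 ± 0.878 to 9.49 ± 1.99 FPKM, so members of each role moved both ways. Of the FOS, JUN and immediate early genes, 7 rose and 11 fell of 22 tested (median log2 fold change -0.21), and 5 rose and 12 fell after median-of-ratios scaling. Fosb was 0.892, 0.874 and 1.3 FPKM without LiCl and 12.6, 15 and 13.1 FPKM with LiCl (log2 fold change 2.85, SE 0.12, adjusted p = 4.86e-09) while its relative Fosl2 went from 72.9 ± 1.47 to 11 ± 0.793 FPKM. Klf2, a transcription factor of quiescence, was 10.8, 13.5 and 14.3 FPKM without LiCl and 0.524, 0.689 and 0.717 FPKM with LiCl (log2 fold change -3.07, SE 0.16, adjusted p = 3.37e-08). Maff, a small partner of NRF2, fell from 55.4 ± 2.03 to 17.4 ± 1.36 FPKM.

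Of the DNA replication and S phase genes, 15 rose and 8 fell of 37 tested (median log2 fold change 0.11), and 13 rose and 8 fell after median-of-ratios scaling. Mcm7, a subunit of the replicative helicase, was 10.3, 10.04 and 8.57 FPKM without LiCl and 23, 23 and 25.4 FPKM with LiCl (log2 fold change 1.22, SE 0.09, adjusted p = 3.98e-07), and its partner Mcm4 fell from 6.82 ± 0.274 to 3.82 ± 0.459 FPKM. Of the mitosis genes, 9 rose and 5 fell of 34 tested (median log2 fold change 0.11), but 6 rose and 6 fell after median-of-ratios scaling. Most were low in both groups. Cdc20, an activator of the anaphase complex, went from 2.33 ± 0.296 to 5.13 ± 0.396 FPKM, and Cks2, which binds cyclin-dependent kinases, from 15 ± 3.1 to 27.1 ± 3.6 FPKM. The falling members were Cdk1, Top2a, Mki67, Kif20a and Ccnb2, Cdk1, the mitotic kinase, from 4.13 ± 0.562 to 2.09 ± 0.765 FPKM.

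Of the BCL2 family, which sets the threshold of apoptosis, 5 rose and 4 fell of 14 tested (median log2 fold change -0.18). Mcl1, which protects cells, was 55, 53.1 and 52.9 FPKM without LiCl and 139, 131 and 133 FPKM with LiCl (log2 fold change 1.31, SE 0.05, adjusted p = 3.33e-09). Bid, which promotes death, rose from 8.32 ± 2.28 to 23.4 ± 5.03 FPKM, and Bax, Pmaip1 and Bak1 rose too, Bak1 not after median-of-ratios scaling. Bok, Bmf, Bcl2 and Bbc3 fell, Bok from 4.56 ± 0.368 to 1.05 ± 0.203 FPKM. Of the writers, erasers and readers of m6A, a methyl mark on RNA, 12 rose and 4 fell of 21 tested (median log2 fold change 0.34), and 9 rose and 5 fell after median-of-ratios scaling. Fto, a demethylase, was 24.7, 25.3 and 25.8 FPKM without LiCl and 12.3, 12.2 and 11.9 FPKM with LiCl (log2 fold change -1.0, SE 0.07, adjusted p = 1.97e-07), and the reader Ythdc1 rose from 8.18 ± 0.911 to 14.9 ± 5.22 FPKM. Igf2bp3, Hnrnpa2b1 and Hnrnpc fell beside Fto. Of the circadian clock genes, 6 rose and 5 fell of 17 tested (median log2 fold change -0.09), and 6 rose and 7 fell after median-of-ratios scaling. Per2 and Cry1, both repressors of the clock, rose from 2.33 ± 0.15 to 10.4 ± 0.369 FPKM and from 6.33 ± 0.624 to 15.8 ± 1.23 FPKM, and Per3 was 2.88, 2.77 and 2.67 FPKM without LiCl and 0.895, 0.691 and 0.538 FPKM with LiCl (log2 fold change -1.15, SE 0.08, adjusted p = 4.87e-07). Nfil3, Cry2, Bhlhe40 and Ciart fell too, Nfil3 from 34.7 ± 2.89 to 7.03 ± 0.888 FPKM. The time of day of harvest is not given in the sources used here.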
